A study of Mus musculus with 18 samples.

Results

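The 9 B cell development genes followed here were Ebf1, Pax5, Rag1, Rag2, Vpreb1, Igll1, Cd79a, Cd79b and Blnk. They were picked by name and make up 9 of the 31165 genes in the deposited table. All 9 passed the filter on low values (a mean scaled count of at least 10 across libraries) and were among the 14104 genes tested. The samples were livers of newborn C57BL/6J mice that had received either a miR-497a-5p mimic, which stands in for that microRNA, or a control mimic of scrambled sequence, by injection into the abdomen on postnatal days 1 and 3. The 6 groups were mimic and scrambled livers at P5 (postnatal day 5), mimic and scrambled livers at P7, and mimic and scrambled livers at P14, with 3 libraries each. Doses of 100 and 10 mg per kg were in use, and which of them a given library had is not stated. No uninjected livers are among the groups, so both arms share the injections. Because the labels tie no pup to a litter, p-values measure only the spread between these livers.

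In the mouse, the liver of the fetus and newborn is a site where B lymphocytes are made, before the bone marrow takes over. A B cell precursor is committed by the transcription factors EBF1 and PAX5, and cuts and joins its antibody gene segments with the RAG1 and RAG2 recombinase. It then tests its new heavy chain in a pre-B receptor, in which VPREB1 and IGLL1 (lambda 5) stand in for a light chain. CD79A and CD79B carry the signal of that receptor and of the later B cell receptor into the cell, where the adaptor BLNK links it to further kinases and phospholipase C.

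Library quality touched the genes unevenly. Scaled counts, which are gene counts scaled per library and rounded by the authors, summed to between 3954405 and 4248257 per library. P7 scrambled replicate 3 carried 3.11 scaled counts per kb at 8686 genes that are silent elsewhere, P7 scrambled replicate 2 carried 0.170, and the other 16 libraries carried at most 0.0263. For a transcript of its length, that background equals 82.0% of the Rag2 value in P7 scrambled replicate 3, 39.5% for Rag1 and 34.5% for Ebf1. It equals 26.2% for Pax5 and at most 12.3% for the other 5 genes there. In P7 scrambled replicate 2 it equals at most 4.86% of the value of any of the 9 genes. The same group held skeletal muscle markers, with a sum of 1452, 20 and 366 in its 3 livers against 2, 2 and 4 in P7 mimic livers. All 9 genes had values above 0 in all 18 libraries, the lowest being 1 for Rag2. Values below are in bulk liver RNA, in which fewer cells of a type and less RNA per cell cannot be told apart.

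The sequences of the injected microRNA and of matches to its seed come first. Only the 3′ UTR of the longest protein-coding transcript of each gene was searched, so sites elsewhere would be missed. The RefSeq mature strand (GRCm38.p6, chr11:70234730-70234751, plus strand) has its seed, bases 2 to 8, in capitals:
mmu-miR-497a-5p: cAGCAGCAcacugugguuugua
A 7-base match to this seed was found in the 3′ UTR of Pax5 and in that of none of the other 8 genes. Pax5 (chromosome 4, minus strand) has 2 matches in 6749 bases of 3′ UTR, given here with the match in capitals, at chr4:44530305-44530333 and chr4:44529112-44529140 of GRCm38:
Pax5 site 1: gcaggtccctcTGCTGCTacaggaagtgg
Pax5 site 2: ctcacctgaggTGCTGCTggtcctcagat
The first is followed by an A opposite the first base of the microRNA. A match is a description of the letters and not a measured site of silencing.

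The promoter windows of 3 genes are shown as a description of their letters. Whether any motif in them acts on these genes was not tested. The motifs searched on both strands were CCCNNGGG (the core bound by EBF1), CAGCTG and CAGGTG (E-boxes bound by E proteins), TGTGGTT (the RUNX core) and ATTTGCAT (the octamer). No motif can lie inside another, and found letters are in capitals. Only exact matches to these letters were counted, with N as any base, so variants of a site would be missed. No PAX5 motif was searched. The RefSeq windows (GRCm38.p6) run from 250 bases before to 50 after the start, at chr2:101649483-101649782 on the minus strand for Rag1, chr16:16863936-16864235 on the minus strand for Igll1 and chr7:24897247-24897546 on the plus strand for Cd79a:
Rag1: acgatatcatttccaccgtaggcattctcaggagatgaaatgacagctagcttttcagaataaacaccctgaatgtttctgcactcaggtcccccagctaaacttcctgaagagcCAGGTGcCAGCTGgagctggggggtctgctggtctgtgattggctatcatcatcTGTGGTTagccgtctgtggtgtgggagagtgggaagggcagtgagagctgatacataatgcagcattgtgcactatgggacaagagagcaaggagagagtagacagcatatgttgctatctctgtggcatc
Igll1: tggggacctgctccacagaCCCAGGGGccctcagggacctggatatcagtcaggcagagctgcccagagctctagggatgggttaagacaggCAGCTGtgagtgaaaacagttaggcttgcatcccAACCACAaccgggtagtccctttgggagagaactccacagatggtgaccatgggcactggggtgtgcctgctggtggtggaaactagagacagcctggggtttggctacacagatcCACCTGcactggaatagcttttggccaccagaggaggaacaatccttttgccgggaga
Cd79a: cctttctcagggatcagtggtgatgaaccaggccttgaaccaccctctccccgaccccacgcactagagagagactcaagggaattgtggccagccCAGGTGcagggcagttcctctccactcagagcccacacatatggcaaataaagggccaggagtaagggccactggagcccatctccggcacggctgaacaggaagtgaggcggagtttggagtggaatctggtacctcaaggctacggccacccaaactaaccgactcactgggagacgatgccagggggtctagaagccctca
In the Rag1 window the E-boxes begin at -135 and -128 and the RUNX core at -81. The Igll1 window holds an EBF core at -231, E-boxes at -158 and -8 and a RUNX core at -124, and the Cd79a window holds an E-box at -154. Of all 32851 promoters of this length, 13.7% hold the EBF core, 16.3% CAGCTG, 20.2% CAGGTG, 5.27% the RUNX core and 1.74% the octamer. The Vpreb1 window holds CAGGTG at -88, an Ebf1 window TGTGGTT at -12, and the Blnk window CAGGTG at -160 and the octamer at -130. No match was found in the Rag2 window, the Pax5 window or the other Ebf1 window.

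Per length of transcript, the signalling chains stood highest and the recombinase lowest. Cd79b (chr11:106311341-106314762) averaged 118 scaled counts per kb over the 18 libraries and Cd79a (chr7:24897381-24902197) 72.0. Igll1 and Vpreb1, which lie next to each other on chromosome 16 (16860671 to 16863985 and 16868403 to 16869255), averaged 43.2 and 42.4 per kb. Blnk (chr19:40928927-40994535) averaged 29.99 per kb, Pax5 (chr4:44524757-44710487) 10.9, Ebf1 (chr11:44617317-45008091) 9.27, Rag1 (chr2:101638282-101649501) 8.95 and Rag2 (chr2:101624718-101632529) 3.37. All of these positions are on mm10, as the deposited table gives them. Rag1 and Rag2 both overlap B230118H07Rik in the table. That gene is on the minus strand, as Rag1 is, while Rag2 is on the plus strand. How reads in the overlap with Rag1 were counted is not known here. Gm12462 and 5730488B01Rik lie within Pax5 on the other strand. Vpreb1 is 97.4% identical to Vpreb2 over 759 aligned bases, so its reads could be split between the copies and its values are uncertain. Vpreb2 itself had a mean of 6.67 ± 0.577 scaled counts at most in any group (P7 mimic livers, SD, n = 3).

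**Figure D1:**
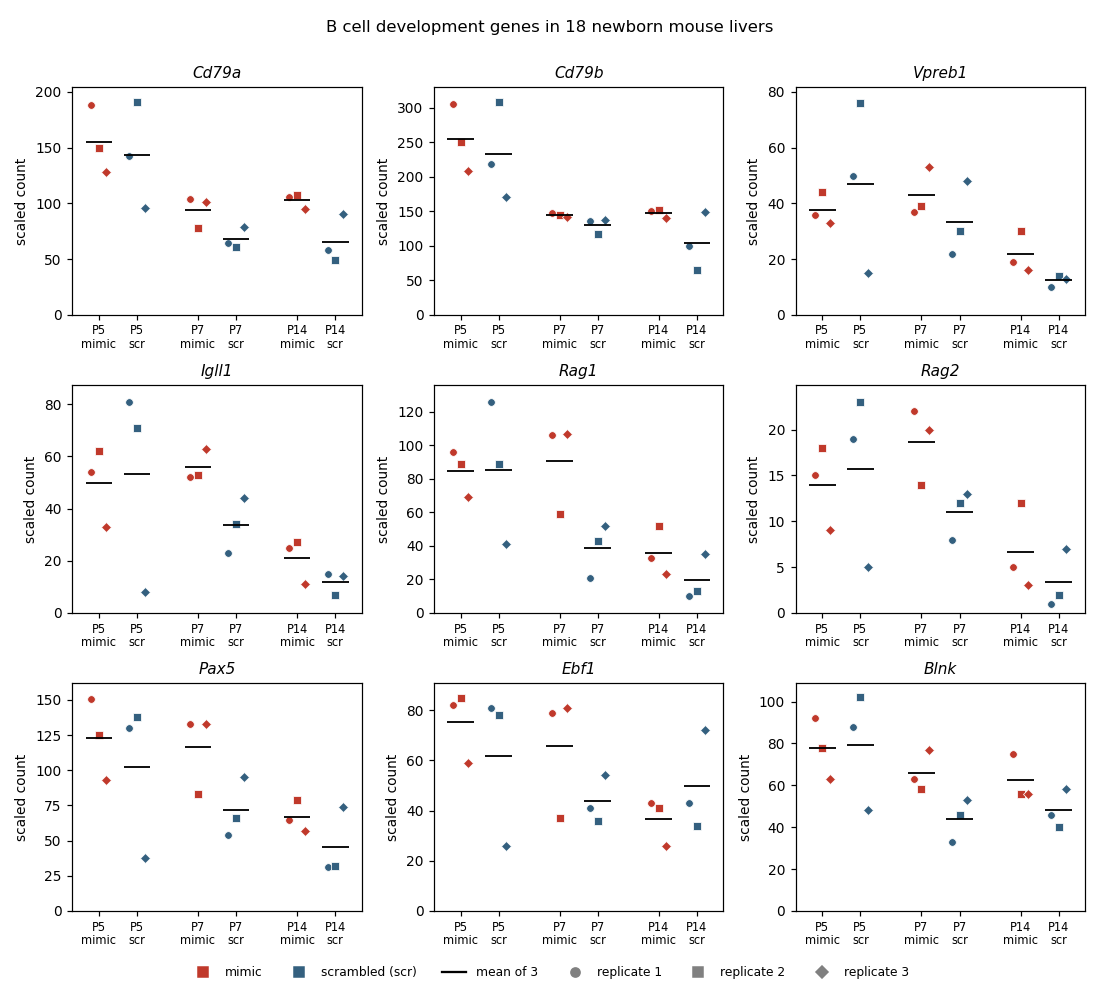
Scaled counts of the 9 genes (vertical axes) in each of the 18 livers, by day and injection (horizontal axes); marker shapes are replicate numbers and lines are means of 3. P5 scrambled replicate 3 is the lowest P5 liver for all 9 genes, and for Rag1 the 3 P7 mimic livers, at 59 to 107, lie above the 3 P7 scrambled livers, at 21 to 52.

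The first question was how these genes changed with age, over mimic and scrambled livers together. Between P5 and P7 the signalling genes Cd79a, Cd79b and Blnk fell, while the recombinase and surrogate light chain genes showed no difference past the threshold. Between P7 and P14 Rag1, Rag2, Vpreb1, Igll1 and Pax5 fell, and Cd79a, Cd79b, Blnk and Ebf1 did not pass. Passing at one step and not at the other does not show that the steps differ, which was tested separately and passed for Cd79a alone. In the P7 against P5 comparison 3 of 9 genes were called, all lower, by limma at an adjusted p under 0.05, where 26.9% of all genes tested were called and 13.2% were called lower. In the P14 against P7 comparison 5 of 9 were called, all lower, where 50.3% of all genes were called and 26.3% were called lower. The median log2 difference of the 9 genes was -0.30 for P7 against P5 and -0.74 for P14 against P7, and over all genes tested it was -0.02 and 0.01.

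Cd79a, the signalling chain that pairs with Cd79b, had a lowest, median and highest value of 96, 146 and 191 scaled counts in the 6 P5 livers, 61, 78.5 and 104 in the 6 P7 livers and 49, 92.5 and 107 in the 6 P14 livers. Cd79b ran at 171, 234.5 and 308 at P5, 117, 139.5 and 148 at P7 and 65, 145 and 152 at P14. All P7 livers lay below all P5 livers for Cd79b, while for Cd79a the lowest P5 liver overlapped the P7 range. The P7 mean was 0.544 times the P5 mean for Cd79a (log2 difference -0.86, SE 0.17, limma adjusted p 0.00371) and 0.564 times for Cd79b (log2 difference -0.79, SE 0.16, limma adjusted p 0.00443). From P7 to P14 neither passed, with log2 differences of 0.02 (SE 0.17) for Cd79a and -0.18 (SE 0.16) for Cd79b.

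Blnk, the adaptor downstream of these chains, ran at 48, 83 and 102 at P5, 33, 55.5 and 77 at P7 and 40, 56 and 75 at P14. Its 3 ranges overlapped. Blnk fell to a P7 mean of 0.701 times the P5 mean (log2 difference -0.51, SE 0.18, limma adjusted p 0.0470). That call was lost in 12 of the 18 fits that leave out 1 library, where the adjusted p reached 0.128, and with the length trend removed (0.105). At P14 the Blnk mean was 1.00 times that at P7.

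Rag1, the recombinase subunit that cuts DNA, had a lowest, median and highest value of 41, 89 and 126 at P5, 21, 55.5 and 107 at P7 and 10, 28 and 52 at P14. Its partner Rag2 ran at 5, 16.5 and 23 at P5, 8, 13.5 and 22 at P7 and 1, 4 and 12 at P14. Neighbouring days overlapped for both genes, with the P14 livers mostly at the bottom. Rag1 fell at P14 to 0.428 times its P7 mean (log2 difference -1.20, SE 0.32, limma adjusted p 0.00485) and Rag2 to 0.337 times (log2 difference -1.61, SE 0.40, limma adjusted p 0.00323). Between P5 and P7 the log2 differences were -0.51 (SE 0.32) for Rag1 and 0.07 (SE 0.40) for Rag2, neither past the threshold.

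The surrogate light chain genes were also lower at P14 than at P7. Vpreb1 ran at 15, 40 and 76 at P5, 22, 38 and 53 at P7 and 10, 15 and 30 at P14, and Igll1 at 8, 58 and 81 at P5, 23, 48 and 63 at P7 and 7, 14.5 and 27 at P14. P5 scrambled replicate 3 was the lowest P5 liver for both genes, and P5 scrambled replicate 2 was the highest for Vpreb1. At P14 the Vpreb1 mean was 0.445 times the P7 mean (log2 difference -1.15, SE 0.30, limma adjusted p 0.00437), and Igll1 fell to 0.368 times (log2 difference -1.45, SE 0.42, limma adjusted p 0.00815). Between P5 and P7 their log2 differences were -0.05 (SE 0.30) and 0.02 (SE 0.42).

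Of the transcription factors, Pax5 passed at the second step and Ebf1 at neither. Pax5, which holds cells in the B lineage, ran at 38, 127.5 and 151 at P5, 54, 89 and 133 at P7 and 31, 61 and 79 at P14. It fell at P14 to 0.599 times its P7 mean (log2 difference -0.74, SE 0.28, limma adjusted p 0.0370), a call lost in 8 of the 18 fits that leave out 1 library (adjusted p up to 0.0916). Ebf1, which acts before Pax5, ran at 26, 79.5 and 85 at P5, 36, 47.5 and 81 at P7 and 26, 42 and 72 at P14. Neither step passed for Ebf1, at log2 differences of -0.30 (SE 0.28) and -0.32 (SE 0.28).

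Leaving out P7 scrambled replicates 2 and 3 together, the libraries with background, kept Rag2 as the only called gene of the 5 between P7 and P14 (log2 difference -1.41, limma adjusted p 0.0417). Without them the log2 difference was -0.89 for Vpreb1 (adjusted p 0.0726), -0.82 for Rag1 (0.110), -1.21 for Igll1 (0.0927) and -0.56 for Pax5 (0.239), in a fit with 1 P7 scrambled liver, which is assumed to vary like the other groups. The liver left in that fit was P7 scrambled replicate 1, which had the highest skeletal muscle marker sum of its group, 1452. Without P7 scrambled replicate 3 alone, Rag1, Rag2, Vpreb1 and Igll1 stayed past the threshold in limma (adjusted p 0.00808 to 0.0213), and Pax5 did not (0.0916).

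Whether the second step differed from the first was tested in the same limma fit, in a comparison added after the data had been seen. The P14 minus P7 change less the P7 minus P5 change was 0.88 (SE 0.29, adjusted p 0.0257) for Cd79a, the 1 gene of 9 that passed, where 36.4% of all genes tested passed and 16.1% passed with a positive difference. The difference was -1.68 (SE 0.70, adjusted p 0.0674) for Rag2, -1.47 (SE 0.72, adjusted p 0.117) for Igll1, -1.09 (SE 0.52, adjusted p 0.106) for Vpreb1 and 0.61 (SE 0.28, adjusted p 0.0957) for Cd79b. A difference between the steps was thus shown for Cd79a alone. Its call was lost in 3 of the 18 fits that leave out 1 library (those without P7 mimic replicate 2, P7 scrambled replicate 1 or P7 scrambled replicate 2, adjusted p up to 0.0716), with the length trend removed (0.0736) and without P7 scrambled replicates 2 and 3 together (0.126).

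**Figure D2:**
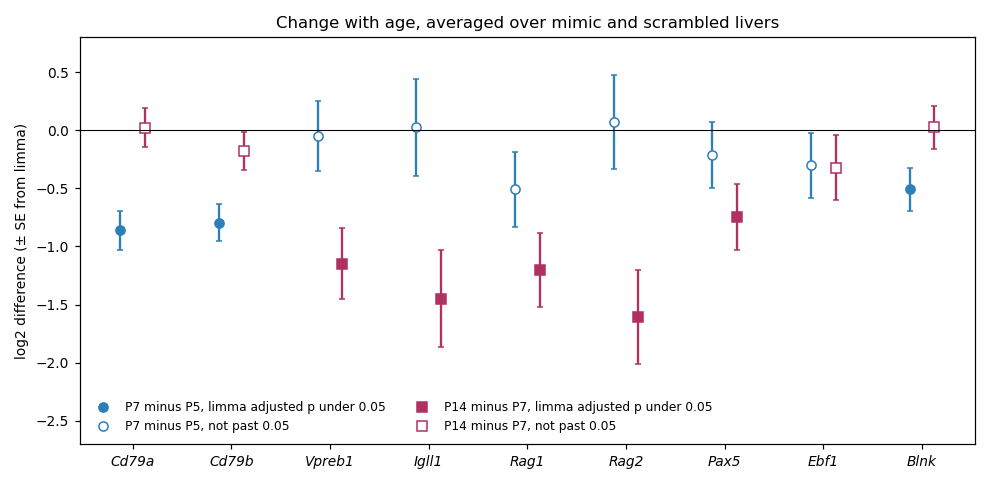
Log2 difference between days (vertical axis) for the 9 genes (horizontal axis), averaged over mimic and scrambled livers; bars are limma standard errors, and filled markers passed an adjusted p of 0.05. Cd79a, Cd79b and Blnk were lower at P7 than at P5, and Vpreb1, Igll1, Rag1, Rag2 and Pax5 lower at P14 than at P7.

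The balance of precursor to signalling genes was followed as the sum of Rag1, Rag2, Vpreb1 and Igll1 over the sum of Cd79a and Cd79b in each library, a description with no test. At P5 it was 0.407, 0.533 and 0.429 in mimic livers and 0.765, 0.519 and 0.258 in scrambled livers. At P7 it was 0.861, 0.740 and 1.00 in mimic livers and 0.370, 0.669 and 0.727 in scrambled livers. At P14 it was 0.320, 0.467 and 0.225 in mimic livers and 0.229, 0.316 and 0.289 in scrambled livers. The 3 P7 mimic livers stood above the 3 P7 scrambled livers, narrowly at the closest point, and the arms overlapped at P5 and P14. The ratios are not corrected for background. In P7 scrambled replicate 3, the closest scrambled liver, background equals 39.5% of the Rag1 value and 82.0% of the Rag2 value. The sums were chosen after the values had been seen.

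**Figure D3:**
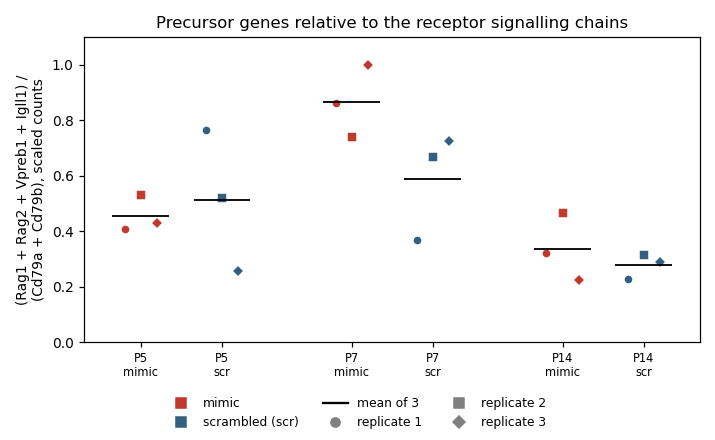
Summed scaled count of Rag1, Rag2, Vpreb1 and Igll1 over that of Cd79a and Cd79b (vertical axis) in each liver, by day and injection (horizontal axis), with lines at the mean of 3. P7 mimic livers lie at 0.740 to 1.00 and P14 scrambled livers between 0.229 and 0.316, without correction for background.

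Other B lineage genes were read from lists beside the 9, to be set against all genes tested, of which 13.2% fell and 13.7% rose at P7, and 26.3% fell and 24% rose at P14. Among mature B cell genes, 8 of 13 tested fell between P5 and P7, with a median log2 difference of -0.53. They include Ms4a1, the CD20 surface protein (-1.18, SE 0.18, limma adjusted p 0.00153), and Tnfrsf13c, the receptor for the survival factor BAFF (-1.14, SE 0.20, adjusted p 0.00257). Ly6d, a listed gene that is not confined to mature B cells, fell too (-1.20, SE 0.15, adjusted p 0.000821). Of 6 immunoglobulin constant region genes tested, 5 fell at P7. The lambda light chain gene Iglc1 was lower by 1.51 on the log2 scale in P7 livers (log2 difference -1.51, SE 0.22, adjusted p 0.00131), the kappa light chain gene Igkc showed -0.91 (SE 0.15, adjusted p 0.00173) and the mu heavy chain gene Ighm -0.51 (SE 0.11, adjusted p 0.00584). Lambda constant region genes such as Iglc1 and Iglc3 belong to a family of copies, so the split of reads between them is uncertain. From P7 to P14 the 6 immunoglobulin genes had a median of 0.29, and Ighm alone was called (-0.30, SE 0.11, adjusted p 0.0377). That call was lost in 8 of the 18 fits that leave out 1 library (adjusted p up to 0.102), with no filter (0.0626), with quantile normalization (0.0566), with no variance trend (0.0630) and without P7 scrambled replicates 2 and 3 together (0.0786). Ighd, at 0.54 (adjusted p 0.0623), passed as higher under 4 alternatives, at 0.00966 with quantile normalization. The change of step passed for Iglc1 (1.76, adjusted p 0.00279), Iglc3 (1.61, adjusted p 0.00250), Igkc (1.05, adjusted p 0.00546), Ly6d (1.24, adjusted p 0.00222) and Ms4a1 (1.11, adjusted p 0.0123). Without P7 scrambled replicates 2 and 3 together it no longer passed for Iglc1 (adjusted p 0.119), Igkc (0.170), Ly6d (0.0671) or Ms4a1 (0.190), and for Igkc it was also lost with the length trend removed (0.115).

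Of 15 early B lineage genes tested, 4 fell and 1 rose between P5 and P7. Vpreb3 (-1.06, SE 0.24, adjusted p 0.00663) and Fcrla (-1.05, SE 0.21, adjusted p 0.00389) fell, while Dntt, the enzyme that adds bases at antibody joints, rose (1.37, SE 0.41, adjusted p 0.0206). The Dntt call was lost in 2 of the 18 fits that leave out 1 library (adjusted p up to 0.0608) and without P7 scrambled replicates 2 and 3 together (1.12, adjusted p 0.154). Dntt had 49, 53 and 84 scaled counts in P7 mimic livers, against 18, 30 and 33 in P7 scrambled livers. In P5 livers it had 21, 28 and 12 with the mimic, against 28, 20 and 2 with the scrambled mimic. Between P7 and P14, 10 of the 15 fell, with a median of -0.94. The leading ones were Spn (-2.30, SE 0.15, adjusted p 1.47e-09), Cd24a (-1.37, SE 0.11, adjusted p 1.52e-08) and Flt3 (-1.62, SE 0.23, adjusted p 1.99e-05), which other blood precursors also express.

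Of 18 lineage transcription factors, 7 fell and 1 rose at P7, among them Spib (-0.85, adjusted p 0.0138) and Pou2af1, a coactivator of octamer factors (-0.73, adjusted p 0.0188), with Foxo1 higher (0.33, adjusted p 0.0116). Foxo1 was at 0.089 with the length trend removed (adjusted p 0.392). Of these 18, 13 fell and 1 rose at P14, with Ikzf1 at -1.71 (SE 0.13, adjusted p 1.03e-08) and Runx1 at -2.05 (SE 0.18, adjusted p 5.23e-08). Of 16 signalling genes, 2 fell and 1 rose at P7 (among them Blk at -0.76, adjusted p 0.0156, against Pik3ap1 at 0.62, adjusted p 0.0130). Without P7 scrambled replicates 2 and 3 together the P7 calls were lost for Spib (adjusted p 0.0721), Pou2af1 (0.0755), Foxo1 (0.0561), Blk (0.1002), Pik3ap1 (0.108) and Ighm (0.0539). At P14, 12 of the 16 fell and 1 rose, with the kinase Btk at -1.63 (SE 0.12, adjusted p 4.07e-09) and Plcg2 at -1.62 (SE 0.12, adjusted p 7.96e-09). Precursor markers of red cells, neutrophils and platelets fell at the same step, with medians of -4.15, -2.12 and -2.08. Which cells the falls of the factors and signalling genes come from was not tested. Among 12 V(D)J end joining genes, which most cells use, 3 fell and 1 rose at P7, and 5 fell and 1 rose at P14.

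Markers of other cell types moved over the same days. Between P5 and P7, 8 of 19 red cell, 3 of 15 neutrophil and 3 of 13 platelet precursor markers fell and 0 rose. Their medians at that step were -0.44, -0.43 and -0.42. Between P7 and P14, 16 of 19 red cell precursor markers, 15 of 15 neutrophil precursor markers and 13 of 13 platelet precursor markers fell, with medians of -4.15, -2.12 and -2.08. T cell markers had 2 of 10 higher at P7 (Cd3e 1.27, adjusted p 0.0224, and Cd8a 1.21, adjusted p 0.0402) and 5 of 10 lower at P14. The Cd3e call was lost in 6 and the Cd8a call in 7 of the 18 fits that leave out 1 library, and without P7 scrambled replicates 2 and 3 together the adjusted p was 0.0563 for Cd3e and 0.210 for Cd8a. The Cd8a call was also lost under 5 other alternatives (adjusted p 0.0532 to 0.130). The summed level of the T cell markers ran from 352 to 682 scaled counts at P5 and P7 and from 237 to 350 at P14, and Ptcra, which marks T cell precursors, was at 0 in all 3 livers of 4 groups. Macrophage markers had 1 of 12 and stromal markers 4 of 16 higher at P7. Macrophage markers had 9 of 12 lower at P14, and stromal markers had 10 of 16 higher and 1 lower. Of 5 plasmacytoid dendritic cell markers tested, 2 fell at P7 and 2 rose at P14, and of 9 hepatocyte markers, 2 rose at P7, while 3 rose and 1 fell at P14. The part of these cell types in the changes of the 9 genes was not tested.

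The second question was whether the mimic changed these genes. The 9 genes tended to stand higher in mimic livers at P7 and P14, but no single gene passed the test over all genes at any day. By limma at an adjusted p under 0.05, 0 of 9 were called at P5, P7 or P14 or averaged over the days, where 0% of all genes tested were called at P5, 0.00709% at P7, 0.0213% at P14 and 0.00709% in the average. At an unadjusted p under 0.05 the counts were 0 of 9 at P5, 2 at P7, 3 at P14 and 5 in the average, against 1.89%, 7.61%, 5.41% and 3.24% of all genes. All of those genes were higher in mimic livers, where 1.27%, 3.7%, 3.11% and 1.88% of all genes had such a p and were higher. The log2 difference was above 0 for 8 of 9 at P5, 9 of 9 at P7, 8 of 9 at P14 and 9 of 9 in the average, against 45.0%, 48.8%, 51.1% and 48.4% of all genes. The genes vary together, so these counts are not independent of each other.

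Rag1 had the largest difference at P7. It had 106, 59 and 107 scaled counts in P7 mimic livers, against 21, 43 and 52 in P7 scrambled livers, with all mimic livers above all scrambled ones. Mimic minus scrambled was 1.25 in log2 units (SE 0.45, unadjusted p 0.0127, limma adjusted p 0.443). At P14 Rag1 had 33, 52 and 23 in mimic livers and 10, 13 and 35 in scrambled livers, which overlap (log2 difference 0.99, SE 0.45, limma adjusted p 0.896). At P5 it had 96, 89 and 69 in mimic livers and 126, 89 and 41 in scrambled livers, with no separation (log2 difference 0.12, SE 0.45). Subtracting the background per kb gave 1.502 at P7. Leaving out P7 scrambled replicates 2 and 3 together gave 2.01, which rests on P7 scrambled replicate 1 alone. That liver had the lowest Rag1 value of its group, 21, and the highest skeletal muscle marker sum, 1452.

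Rag2, at low counts, had 22, 14 and 20 in P7 mimic livers, against 8, 12 and 13 in P7 scrambled livers, again without overlap. Rag2 differed by 0.72 on the log2 scale (SE 0.57, limma adjusted p 0.882), or by 1.43 with the background subtracted. At P14 Rag2 had 5, 12 and 3 in mimic livers and 1, 2 and 7 in scrambled livers, and at P5 it had 15, 18 and 9 in mimic livers and 19, 23 and 5 in scrambled livers. Both of those days overlapped.

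Igll1 had 52, 53 and 63 scaled counts in P7 mimic livers, against 23, 34 and 44 in P7 scrambled livers, without overlap (log2 difference 0.76, SE 0.59, limma adjusted p 0.880). At P14 it had 25, 27 and 11 in mimic livers and 15, 7 and 14 in scrambled livers, and at P5 it had 54, 62 and 33 in mimic livers and 81, 71 and 8 in scrambled livers. Its neighbour Vpreb1 had 37, 39 and 53 in P7 mimic livers and 22, 30 and 48 in P7 scrambled livers, which overlap. At P14 Vpreb1 separated, with 19, 30 and 16 in mimic livers against 10, 14 and 13 in scrambled livers (log2 difference 0.73, SE 0.43, limma adjusted p 0.974). At P5 Vpreb1 had 36, 44 and 33 in mimic livers and 50, 76 and 15 in scrambled livers, the only negative P5 difference of the 9 (-0.05, SE 0.43).

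Cd79a had 106, 107 and 95 scaled counts in P14 mimic livers, against 58, 49 and 90 in P14 scrambled livers. All mimic livers lay above all scrambled ones, and 1 scrambled liver came close (log2 difference 0.68, SE 0.24, unadjusted p 0.01, limma adjusted p 0.685). At P7 it had 104, 78 and 101 in mimic livers and 64, 61 and 79 in scrambled livers, an overlap of 1 scaled count, and at P5 it had 188, 150 and 128 in mimic livers and 142, 191 and 96 in scrambled livers. Cd79b had 148, 145 and 142 in P7 mimic livers, against 136, 117 and 137 in P7 scrambled livers, without overlap but close together (log2 difference 0.16, SE 0.23). At P14 Cd79b had 150, 152 and 141 in mimic livers and 99, 65 and 149 in scrambled livers (log2 difference 0.58, SE 0.23, limma adjusted p 0.814), and at P5 it had 306, 250 and 208 in mimic livers and 219, 308 and 171 in scrambled livers, both overlapping.

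Blnk had 63, 58 and 77 in P7 mimic livers, against 33, 46 and 53 in P7 scrambled livers, without overlap (log2 difference 0.59, SE 0.26, limma adjusted p 0.600). The groups overlapped at P14, at 75, 56 and 56 in mimic livers and 46, 40 and 58 in scrambled livers, and at P5, at 92, 78 and 63 in mimic livers and 88, 102 and 48 in scrambled livers. In all, 5 of 9 genes at P7 had every mimic liver above every scrambled liver, where 6.52% of all genes tested did. At P14 this held for 2 of 9, where 4.96% of all genes did, and at P5 for 0 of 9, where 2.89% did. The opposite, every mimic liver below every scrambled liver, held for 0 of 9 genes at P5, P7 and P14, where 2.12%, 7.44% and 4.35% of all genes did so.

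Pax5, the 1 gene of the 9 with seed matches (printed above), was not lower in the RNA of mimic livers. Whether the matches act on Pax5 was not tested. Pax5 had 133, 83 and 133 scaled counts in P7 mimic livers and 54, 66 and 95 in P7 scrambled livers, overlapping through 1 liver of each arm (log2 difference 0.70, SE 0.40, limma adjusted p 0.758). At P14 it had 65, 79 and 57 in mimic livers and 31, 32 and 74 in scrambled livers, and at P5 151, 125 and 93 in mimic livers and 130, 138 and 38 in scrambled livers. Ebf1 had 79, 37 and 81 in P7 mimic livers and 41, 36 and 54 in P7 scrambled livers. At P14 Ebf1 had 43, 41 and 26 in mimic livers and 43, 34 and 72 in scrambled livers, the only one of the 9 with a negative P14 difference (-0.39, SE 0.39, limma adjusted p 0.999). At P5 Ebf1 had 82, 85 and 59 in mimic livers and 81, 78 and 26 in scrambled livers.

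**Figure D4:**
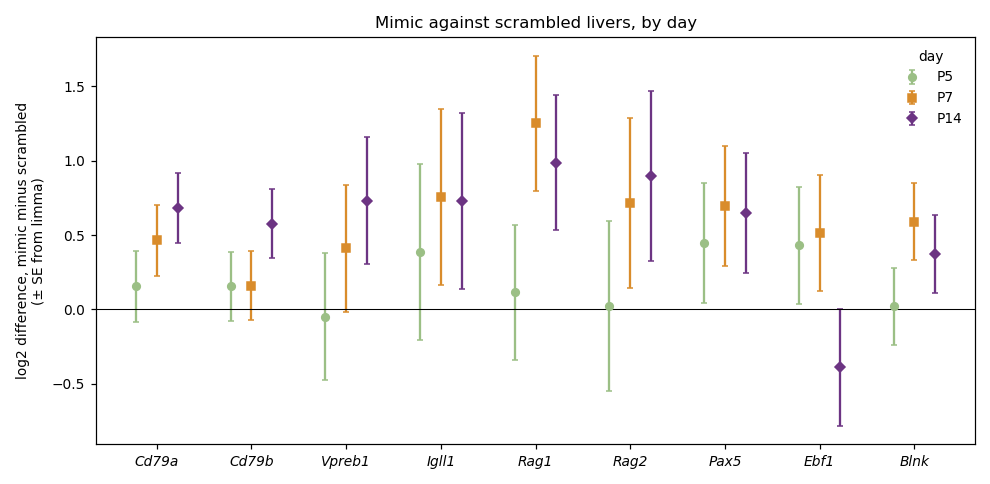
Log2 difference, mimic minus scrambled (vertical axis), for the 9 genes (horizontal axis) at P5, P7 and P14; bars are limma standard errors. All 9 differences lie above 0 at P7, where Rag1 is highest at 1.25, and Ebf1 lies below 0 at P14, at -0.39.

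Single livers set much of this. P5 scrambled replicate 3 was the lowest of the 6 P5 livers for all 9 genes, and without it 0 of 9 genes stood higher in P5 mimic livers, with log2 differences from -0.71 for Vpreb1 to -0.05 for Cd79b. P14 scrambled replicate 3 was the highest P14 scrambled liver for Cd79a, Cd79b, Rag1, Rag2, Pax5, Ebf1 and Blnk, and without it the P14 differences were 1.5 for Rag1, 1.47 for Rag2, 1.05 for Pax5, 0.93 for Cd79a, 0.87 for Cd79b, 0.52 for Blnk and -0.092 for Ebf1, with limma adjusted p-values of 0.230 or more. P14 mimic replicate 2 was the highest of the 6 P14 livers for 7 of the 9 genes. P7 scrambled replicate 1, which had the highest skeletal muscle marker sum of its group, was the lowest of the 6 P7 livers for 6 of the 9 genes. Without it 9 of 9 genes still stood higher in P7 mimic livers.

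Over the 3 days together, labels were permuted within each day in an exact, two-sided test of each gene, for which the smallest possible p is 0.00025. Mimic livers were higher by a mean within-day log2 difference of 0.43 for Cd79a (exact p 0.0138), 0.79 for Rag1 (exact p 0.0258) and 0.60 for Pax5 (exact p 0.0323). The exact p was 0.0600 for Cd79b (0.30) and for Blnk (0.33), 0.114 for Igll1 (0.62), 0.137 for Rag2 (0.55), 0.203 for Vpreb1 (0.36) and 0.509 for Ebf1 (0.18), with the difference in parentheses. Adjusted over all genes tested in limma, each of the 9 had a p of 1.00. The exact p-values are not adjusted for the 9 genes tested. With 1 library left out, the exact p for Cd79a ranged from 0.00300 to 0.0428, that for Rag1 from 0.01 to 0.0668 and that for Pax5 from 0.0103 to 0.0803. Of these 18 settings, Rag1 was no longer under 0.05 in 4 and Pax5 in 9. Within a single day the exact test cannot go below 0.1.

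The mimic difference was not shown to vary between days for any of the 9 genes. The limma F test of the 3 within-day differences called 0 of 9, where 0.00709% of all genes were called, and 0 of 9 had an unadjusted p under 0.05, where 6.5% did. The smallest p was that of Rag1 (unadjusted p 0.208, limma adjusted p 0.915).

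The other B lineage lists went both ways in P7 mimic livers, with 0 genes called. Of 15 early B lineage genes 8 stood higher (median 0.06), of 18 factors 9 (median 0.00), of 16 signalling genes 7 (median -0.06), of 6 immunoglobulin genes 3 (median -0.17) and of 13 mature B cell genes 3 (median -0.19), where 48.8% of all genes tested did. Values follow for genes with the smallest p in their lists, none of which passed. Vpreb3 had 51, 46 and 64 scaled counts in P7 mimic livers and 24, 22 and 34 in P7 scrambled livers (log2 difference 0.99, SE 0.34, limma adjusted p 0.411). Il7r, the receptor for the growth factor of B precursors, had 48, 46 and 63 in P7 mimic livers and 20, 24 and 28 in P7 scrambled livers (1.09, SE 0.41, adjusted p 0.473). Neither gene overlapped between the arms, as for the 6.52% of all genes tested with every P7 mimic liver above. Being picked for a small p favours such genes. Pou2af1 had 161, 124 and 155 in P7 mimic livers and 78, 81 and 92 in P7 scrambled livers (0.80, SE 0.30, adjusted p 0.471). Ms4a1, of the mature B cell list, had 90, 50 and 57 in mimic livers and 97, 74 and 74 in scrambled livers (-0.34, SE 0.26, adjusted p 0.869). The T cell list had 2 of 10 higher at P7, with a median of -0.26, and 0 called.

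At P14 the mimic lists of B lineage genes were likewise without calls. Of 15 early B lineage genes 12 stood higher in mimic livers (median 0.29), of 18 factors 17 (median 0.22), of 16 signalling genes 10 (median 0.12), of 6 immunoglobulin genes 4 (median 0.30) and of 13 mature B cell genes 10 (median 0.28), where 51.1% of all genes tested did. Fcrla, picked for its small p, had 112, 100 and 80 in P14 mimic livers and 32, 42 and 75 in P14 scrambled livers (log2 difference 1.033, SE 0.29, limma adjusted p 0.385). All its mimic livers lay above all scrambled ones, as for 4.96% of all genes tested.

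Marker lists of other blood cells and of stroma also leaned higher or lower in mimic livers at P7 or P14, but not all at both days. Of all genes tested, 48.8% stood higher in mimic livers at P7 and 51.1% at P14. Platelet precursor markers summed to 3244, 3797 and 3823 in P7 mimic livers, against 2216, 2184 and 2389 in P7 scrambled livers, with 12 of 13 higher and 0 called. Their P14 sums overlapped, at 1726, 1088 and 718 in mimic livers and 950, 998 and 1009 in scrambled livers, with 11 of 13 higher. At P7, 6 of 15 neutrophil (median -0.02) and 12 of 19 red cell precursor markers (median 0.08) stood higher. So did 10 of 16 stromal (median 0.07) and 0 of 12 macrophage markers (median -0.12). At P14, 15 of 15 neutrophil precursor markers (median 0.57) and 17 of 19 red cell precursor markers (median 0.59, 1 called) stood higher in mimic livers, and 0 of 16 stromal markers did (median -0.29). Stromal markers summed to 14235, 13922 and 10583 in P14 mimic livers, against 15781, 15473 and 16455 in P14 scrambled livers. Ccl21a, a lymph node chemokine gene with near-identical copies whose reads are uncertain, had 3, 16 and 0 scaled counts in P14 mimic livers, against 72, 48 and 89 in P14 scrambled livers (log2 difference -4.07, SE 0.97, limma adjusted p 0.275). The other 5 spleen and lymph node stroma genes in the table had too few counts to be tested, and Nkx2-5, which marks spleen stroma, was at 0 in both P14 groups. Their part in the differences of the 9 genes was not tested.

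**Figure D5:**
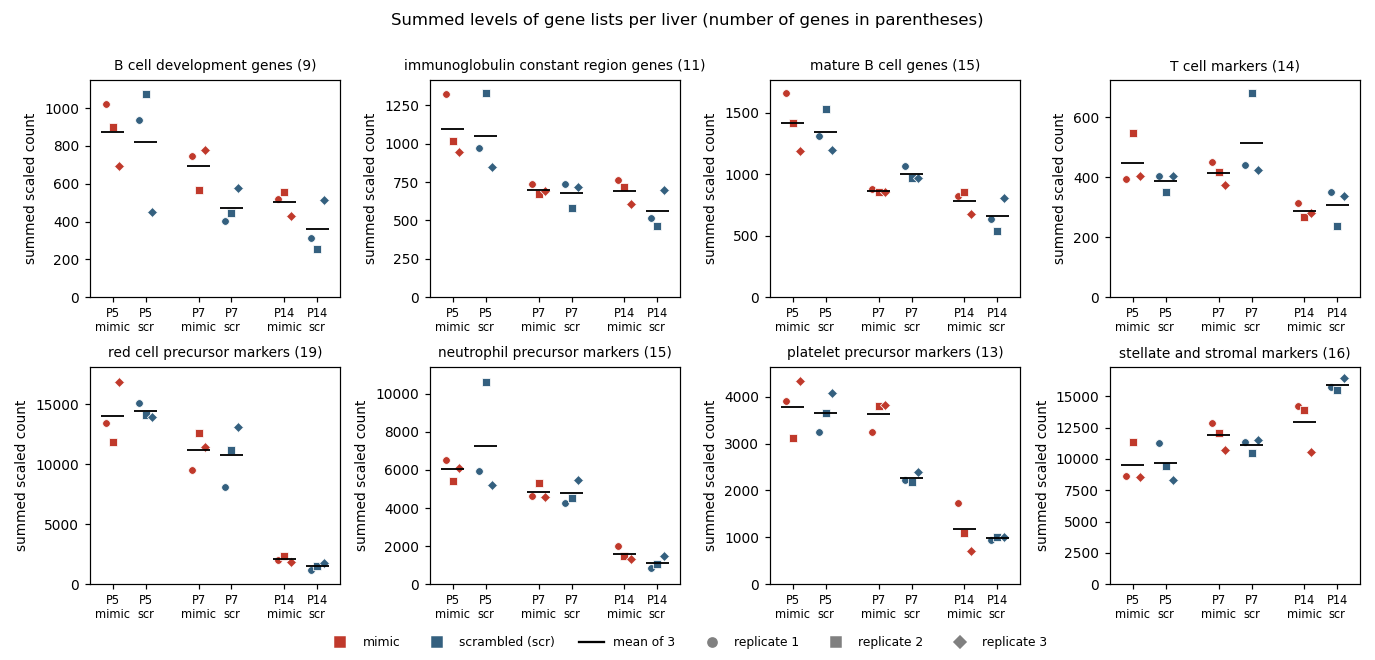
Summed scaled counts (vertical axes) of the 9 genes and of 7 marker lists in each liver, by day and injection (horizontal axes), with lines at the mean of 3. The 9 genes sum to 566 to 777 in P7 mimic livers and 402 to 575 in P7 scrambled livers, and red cell precursor markers sum to 1834 to 2395 in P14 mimic livers and 1196 to 1773 in P14 scrambled livers.

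The genes most like the 9 were sought as those whose deviations from the 6 group means correlated best with the mean standardized deviation of the 9, over 18 libraries, among all genes tested. The 8 leading genes were Pou2af1 (Pearson r 0.958), Spib (0.951), Kcnab2 (0.926), Cyfip2 (0.926), Siglecg (0.925), Bfsp2 (0.919), Il7r (0.894) and Arl5c (0.892). The 9 genes themselves ran from 0.773 to 0.983, each against a mean that includes it, which raises its r. Without P5 scrambled replicate 3 the r of the 8 leading genes ran from 0.792 to 0.914 and that of the 9 genes from 0.626 to 0.957. By the values themselves the leading genes were Pou2af1 (0.966), Spib (0.949), Bfsp2 (0.936), Arl5c (0.928), Il7r (0.920), Siglecg (0.914) and Chst3 (0.908). All points share the libraries and their scaling, and these r values are a description.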

How the data were processed

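Stranded mRNA sequencing covered 18 livers, per the labels' protocols. Per the submitters' processing notes, the tools named are DESeq2 1.26.0, featureCounts 1.6.5, Picard 2.21.7, STAR 2.6.1d and Trimmomatic 0.39, and the build is GRCm38 or mm10. Filters are not given in the sources used here. The deposited values are scores: gene counts scaled per library by the authors and rounded to whole numbers, judged from the values. They are not raw counts, so no count model was used and the read depth behind a value is unknown.

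Groups came from the sample titles. Genes with a mean of 10 or more (14104 of 31165) entered limma 3.58.1 (R 4.3.3) as log2(value + 1). The model had 6 group means over all 18 libraries. Its variances were moderated along a trend with expression, with 12 residual degrees of freedom and 6.49 from the prior. Fold changes on this scale understate the change of low genes. P-values were adjusted by Benjamini-Hochberg across the tested genes, and 0.05 was the threshold. Single genes were also tested by exact permutation within days. Background per kb came from 8686 genes with a mean under 0.2 in 16 libraries. GENCODE M21 gave transcript lengths and 3′ UTRs, with 31108 gene IDs found. Of the 9 genes, 8 matched the RefSeq promoter table, and 2 windows are listed for Ebf1.

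All 9 genes are named. From each list up to 4 genes with the smallest p, and any past the threshold, could be named, and the 8 genes most like the 9 by each measure; Vpreb2 was named for its likeness to Vpreb1. One gene that this rule names is not reported here. The genes, lists and tests were chosen with earlier results of these data known. The comparison of the 2 age steps, the fit without P7 scrambled replicates 2 and 3 and the subtraction of background were added after the data were seen. Same-numbered mimic and scrambled libraries did not deviate together, so replicate numbers were not used as pairs. Python 3.11.15 was used for the rest.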

Additional observations from a re-analysis of the deposited data

How the results depend on the processing

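The count of the 9 genes called stayed at 0 in every mimic comparison under all alternatives run. Leaving out 1 library each, it was 2 to 3 for P7 against P5, 4 to 5 for P14 against P7 and 0 to 3 for the difference of the steps. For P14 against P7 it was 2 with a mean of 50 or more, which leaves 6 of the 9 tested, and 1 without P7 scrambled replicates 2 and 3 together. For the difference of the steps it was 2 with quantile normalization, 0 with the length trend removed and 0 without those 2 libraries. With the replicate number as a block, which nothing in the design supports (same-number correlations -0.234 to 0.244), Blnk lost its P7 call (limma adjusted p 0.0605) and 3629 genes were called for P7 against P5, against 3798. The Blnk call was also lost with no filter (limma adjusted p 0.0808), with no variance trend (0.0542) and with only the libraries compared (0.0634). Without P7 scrambled replicates 2 and 3 the Blnk call was lost too, at a log2 difference of -0.70. The P14 call of Pax5 was lost with no filter (limma adjusted p 0.0542), with quantile normalization (0.0917) and with no variance trend (0.0592). Pax5 also lost it with background subtracted (0.0546) and with the length trend removed (0.142). Directions turned for small differences. Rag2 at P5 was -0.020 and Igll1 for P7 against P5 -0.014 with a pseudocount of 5. For P7 against P5, Rag2 was -0.28 with background subtracted and -0.12 without P7 scrambled replicates 2 and 3, Igll1 was -0.22 without them and Vpreb1 0.24 with the length trend removed. For P14 against P7, Ms4a1 was 0.10 (quantile) and 0.035 (length) and Igkc -0.047 (length) and -0.057 (without those libraries). The step difference of Ebf1 was 0.12 (quantile), 0.37 (length), 0.050 (without those libraries) and 0.19 (background), and that of Rag1 0.061 (without those libraries). The causes were not tested.

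Leaving out 1 library each turned the sign of the P5 mimic difference of all 9 genes: Cd79a -0.10 to 0.39, Cd79b -0.046 to 0.38, Vpreb1 -0.71 to 0.43, Igll1 -0.65 to 0.95, Rag1 -0.33 to 0.46, Rag2 -0.60 to 0.40, Pax5 -0.15 to 0.77, Ebf1 -0.095 to 0.71 and Blnk -0.30 to 0.24. It also turned Rag2 (-0.24 to 0.26), Vpreb1 (-0.38 to 0.19) and Igll1 (-0.49 to 0.31) for P7 against P5, Cd79a (-0.10 to 0.11), Blnk (-0.071 to 0.096) and Ms4a1 (-0.19 to 0.048) for P14 against P7, and the step difference of Ebf1 (-0.38 to 0.24). Genes called overall ranged from 0 to 13 at P7 and 3 to 16 at P14 in the mimic comparisons, and from 1988 to 5072 for P7 against P5. Without P7 scrambled replicates 2 and 3 together, 4651 genes were called for P14 against P7, against 7100. Rag2 ran at 1 to 23 scaled counts per liver, and the read depth behind them is unknown.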
